A study of Mus musculus with 5 samples.

Results

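Podocytes were the 165 cells that carried this name in the authors' deposited cell annotation, out of 23797 kept cells from 5 injured mouse kidneys. All 165 came from a single cluster of the authors' clustering. Kidneys were taken after ischemia-reperfusion injury, in which the blood supply of the kidney is interrupted and then restored. Mice 1 and 2 were examined at 48 h and mice 3, 4 and 5 at day 10, with 1 single-cell library of kidney per mouse. Every mouse had been injured, so all values describe injured kidneys and no uninjured level was measured. Strain, sex, age and the dissociation method were not given in the sources used here.

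Podocytes are the epithelial cells that cover the outer face of the glomerular capillaries. Their interlocking foot processes are joined by the slit diaphragm, a junction built around nephrin that holds back plasma protein. They rest on a basement membrane rich in type IV collagen, supply the capillary endothelium with VEGF-A, and in the adult have left the cell cycle. Ischemia-reperfusion is known chiefly for damage to the tubules.

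Mouse 1 gave 34 podocytes, mouse 2 gave 15, mouse 3 gave 49, mouse 4 gave 23 and mouse 5 gave 44. Their summed counts of unique molecular identifiers (UMIs, each standing for 1 captured RNA molecule) were 232271, 107774, 255680, 169635 and 248164 in mice 1 to 5. The median podocyte held 6219 UMIs, with medians by mouse from 5569 to 8155, and 48 of the 165 held fewer than 3000. The median share of UMIs from mitochondrial genes was 17.5% in those 48 shallow cells and 5.59% in the other 117. Levels are given in CPM, the UMIs of a gene per 1000000 UMIs summed over the podocytes of a mouse. The barcode of 1 podocyte also occurred in another library on a cell of another label, and 0 barcodes were shared between podocytes.

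Podocyte markers were found in nearly all cells of the label, which is a description and no test, since the authors' labels were made from the same expression values. Of the 165 cells, 142 held UMIs of all 3 of Nphs1 (nephrin), Podxl (podocalyxin, the sialoprotein of the podocyte surface) and Synpo (synaptopodin, an actin-associated protein of foot processes), 19 held 2 of them, 4 held 1 and 0 held none. Nphs1 had a UMI in 92.1% of podocytes (exact 95% binomial interval 86.9 to 95.7%) and in 3.01% of all other cells, at median depths of 6219 and 9187 UMIs. With every cell thinned to 1000 UMIs, those shares were 79.4% and 0.347%. Podxl was found in 98.8% of podocytes but also in 77.1% of endothelial cells, and Synpo in 92.7% of podocytes but also in 43.7% of interstitial cells. These intervals cover counting error only.

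A marker rule alone would not have recovered the label. Outside it, 1033 cells held UMIs of at least 2 of the 3 markers, and 818 of these were labelled endothelial. Only 29 of the 23632 other cells held all 3.

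Some cells with the podocyte label also held RNA typical of other cells. In 10 of the 165, marker genes of another type made up more than 0.3% of the UMIs and at least 20 UMIs, and these 10 were spread as 2, 0, 2, 3 and 3 over mice 1 to 5. One cell of mouse 5 with 30057 UMIs held 124 UMIs of thick ascending limb markers and 223 of distal tubule and collecting duct markers beside 30 of Nphs1. One cell of mouse 4 held 0 UMIs of Nphs1 and 99 of mesangial and stromal markers. No doublet caller was applied, and comparisons over time are given with and without these 10 cells where it changes them.

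Levels in podocytes were compared with those in the other labels. In the measured range, meaning a mean of at least 100 CPM and a UMI in at least 25% of podocytes, there were 1677 genes. The range is set by the podocyte level alone, so counts within it leave out genes that are low in podocytes. Of these, 586 (34.9%) had a higher mean in podocytes than in any of the other 17 labels, and 55 (3.28%) were more than 10 times the highest other label. The next highest label was interstitial cells for 22 of the 55. Of the 55, 3 were on the slit diaphragm list, 8 on the surface list, 3 on the transcription factor list, 2 on the cytoskeletal list, 1 on the basement membrane list and 3 on the list of secreted factors. These ratios too are a description with no test.

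Nphs1, which encodes nephrin, the adhesion molecule that spans the slit, measured 1580.0 and 1809 CPM at 48 h and 2276, 2812 and 2091 CPM at day 10, 344 times the highest other label. It was high in every mouse, while the label next in order had a mean of 6.14 CPM. Magi2, a scaffold that binds nephrin, had a mean of 922 CPM (SD 249, n = 5 mice) and a ratio of 30.4. Of the 17 slit diaphragm genes listed, 8 were in the measured range, and all 8 were highest in podocytes. Of all 17, whatever their level, 11 were highest in podocytes. Trpc6, for 1, had 0 UMIs in podocytes. Cd2ap, an adaptor of the junction, showed the smallest ratio of these at 1.26, with collecting duct principal cells next.

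Surface proteins gave a similar picture, with 17 of 18 listed genes in the measured range and all 17 highest in podocytes. The gene outside the range, Pla2r1, had 1 UMI in podocytes and was higher in interstitial cells (ratio 0.02). Podxl measured 5158 and 5502 CPM at 48 h and 5116, 4787 and 4501 CPM at day 10. Its ratio was 7.90, with endothelial cells next at a mean of 635 CPM. Ptpro, a receptor tyrosine phosphatase of the podocyte surface, had a ratio of 36.6, and Thsd7a, the target of autoantibodies in some membranous nephropathy, one of 25.2. The peptidases Enpep and Dpp4 had ratios of 19.2 and 15.6.

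Among transcription factors, Wt1, which is required for podocyte formation and is mutated in some inherited glomerular disease, measured 676 and 770.1 CPM at 48 h and 747, 996 and 612 CPM at day 10, 26.4 times interstitial cells. Foxd1, a forkhead factor, had a ratio of 46.9. Tcf21, needed for podocyte differentiation, had a ratio of 4.25, with interstitial cells next. Lmx1b, the factor mutated in nail-patella syndrome, lay just under the level limit at a mean of 99.1 CPM and had a ratio of 79.9. Of 17 listed factors 9 were in the measured range, and 7 of these were highest in podocytes. The other 2, Foxc1 and Tead1, were higher in descending thin limb cells.

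Cytoskeletal genes were less restricted. Of 24 listed genes of actin and foot processes, 19 were in the measured range and 10 of these were highest in podocytes, beside 34.9% of all genes in that range. Ddn (dendrin, which binds nephrin's partners at the slit diaphragm) had a ratio of 558 with a mean of 319 CPM (SD 29.8, n = 5 mice), and Rhpn1 one of 50.2. Synpo measured 891 and 779 CPM at 48 h and 817, 743 and 645 CPM at day 10, 8.71 times endothelial cells. Vim, at a ratio of 0.995, was level with interstitial cells, Myh9 was higher in interstitial cells, and Tmsb4x was higher in immune cells.

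The collagen IV chains of the mature glomerular basement membrane were all highest in podocytes. Col4a3 measured 2398 and 2069 CPM at 48 h and 2444, 3342 and 1878 CPM at day 10, 12.4 times the next label, and Col4a4 and Col4a5 had ratios of 4.21 and 4.29. Of 12 basement membrane and adhesion genes in the measured range, 9 were highest in podocytes. Among secreted factors, Vegfa measured 2803 and 2533 CPM at 48 h and 2605, 2217 and 2144 CPM at day 10, 31.4 times the S1 proximal tubule label. Sema3e, a guidance cue for endothelial cells, had a ratio of 78.7. Cdkn1c, the cyclin-dependent kinase inhibitor p57, had a mean of 7178 CPM and a ratio of 52.8.

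**Figure D1:**
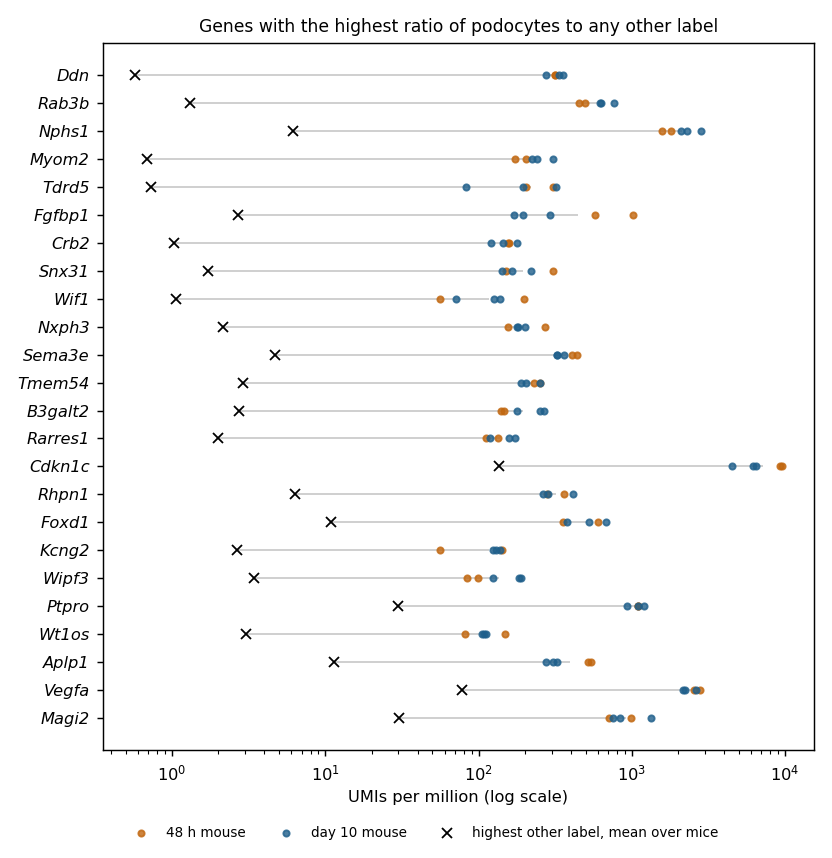
Levels of 24 of the 25 genes with the highest ratio of podocytes to any other label. The x axis gives CPM on a log scale, circles are single mice (orange 48 h, blue day 10) and crosses are the mean over mice of the highest other label. The ratios run from 558 for Ddn at the top to 30.4 for Magi2 at the bottom, and the day 10 circles of Fgfbp1, Cdkn1c and Aplp1 lie below the 48 h circles.

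Other genes among the 25 with the highest ratios are less often used as podocyte markers. Rab3b, a small GTPase of vesicle release, had a ratio of 453, Myom2 one of 335, Tdrd5 one of 302, Crb2, a polarity protein needed at the slit diaphragm, one of 148, and Wif1, a secreted Wnt inhibitor, one of 110. Over the 25 genes, the SD between mice was at most 78.7% of the mean, with a median of 22.2%. The widest spread belonged to Fgfbp1. Wt1os, with a ratio of 36.4, overlaps Wt1 on the opposite strand, and the assignment of its reads was not tested.

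Gene groups that other kidney cells use were not podocyte-rich. Of 23 nuclear genes of oxidative phosphorylation in the measured range, 0 were highest in podocytes, as were 0 of 12 mitochondrially encoded genes and 0 of 7 heat shock genes. By contrast, 8 of 11 genes of endoplasmic reticulum folding and stress were highest in podocytes. Among all genes in the measured range this share was 34.9%, and the heat shock list is short. None of the 20 genes listed as markers of podocyte injury, among them desmin and uPAR, reached the measured range, and of 15 parietal epithelial genes only Alcam did. A Spearman correlation of mean levels over the 18 labels placed Eif2s2 (0.92) and Rpl21 (0.90) closest to Nphs1, an ordering set mostly by labels in which Nphs1 was near 0.

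Some identity genes differed between shallow and deep podocytes. The 48 cells under 3000 UMIs had 398 CPM of Wt1 and 3786 CPM of Cdkn1c, against 772 and 7169 CPM in the 117 deeper cells. Vegfa and Fgfbp1 were also lower in the shallow cells, at 2129 and 262 CPM against 2494 and 400 CPM. Podxl and Synpo were higher there, at 5790 and 959 CPM against 4890 and 760 CPM. Nphs1 was similar in both, at 2055 and 2116 CPM. These values pool the cells of all mice, so they give no spread between mice. Proximal tubule markers summed to 3848 CPM in the shallow cells and 1035 CPM in the deeper ones. The part of depth and of tubular RNA in these values was not tested.

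Day 10 was compared with 48 h on the summed podocyte UMIs of each mouse with edgeR's quasi-likelihood test and Benjamini-Hochberg adjustment over 4167 genes. At an adjusted p under 0.05, 2 genes (0.048%) passed. Fgfbp1 alone fell and Apoe alone rose, each 0.024% of the genes tested. At an unadjusted p under 0.05 there were 258 genes (6.19%), 140 higher (3.36%) and 118 lower (2.83%), and in 998 genes (24%) the CPM of the groups did not overlap. Nothing in the labels says whether the libraries were prepared together, so time and any batch cannot be told apart.

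**Figure D2:**
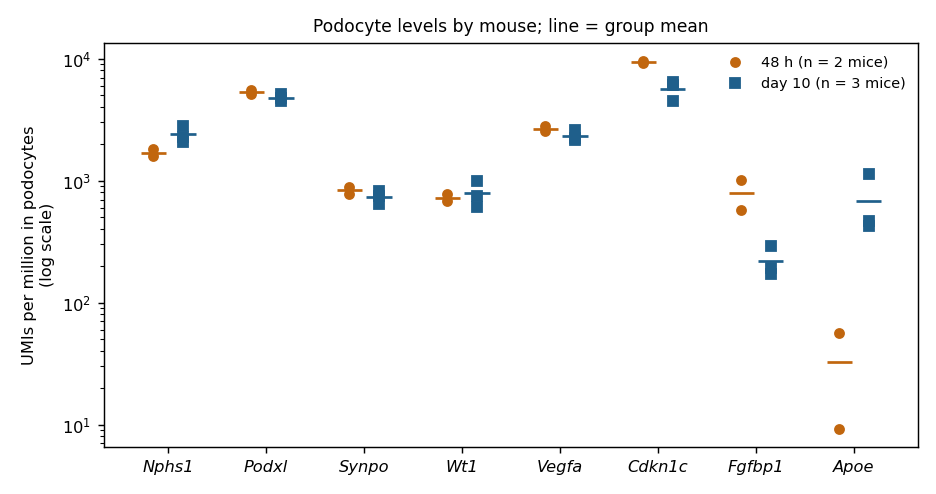
Levels in podocytes by mouse for 8 genes. The y axis gives CPM on a log scale, orange circles are the 2 mice at 48 h, blue squares the 3 mice at day 10, and short lines the group means. Fgfbp1 (171 to 293 at day 10 against 573 and 1011 at 48 h) and Apoe stand apart, while Wt1, Synpo and Vegfa overlap between the groups. Nphs1, Podxl and Cdkn1c do not overlap either, with smaller differences.

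Fgfbp1 encodes a secreted protein that binds fibroblast growth factors and releases them from the matrix. It measured 573 and 1011 CPM in mice 1 and 2 and 293, 171 and 193 CPM in mice 3, 4 and 5. Both 48 h mice lay above all 3 day 10 mice. Group means were 792 CPM (SD 310.3, n = 2) and 219 CPM (SD 65.1, n = 3), and the log2 fold change was -1.80 (SE 0.27, 95% interval -2.36 to -1.23; adjusted p = 0.0156 by edgeR).

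The number of cells that held the transcript was lower too, which is counted from the same UMIs and is no separate support. In mice 1 to 5, 25 of 34, 9 of 15, 23 of 49, 7 of 23 and 19 of 44 podocytes had a UMI of Fgfbp1. In cells of at least 3000 UMIs thinned to that depth, the shares were 83.3% and 70.0% at 48 h and 48.6%, 10.5% and 31.0% at day 10, and the groups did not overlap. These shares rest on 24, 10, 35, 19 and 29 cells in mice 1 to 5. One cell of mouse 2 held 46 of that mouse's 109 UMIs, and without it mouse 2 had 647 CPM, still above the day 10 mice. The adjusted p rose to 0.109 without mouse 4 and to 0.253 without mouse 5, with log2 fold changes of -1.66 and -1.72.

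Fgfbp1 lies on chromosome 5 of GRCm38.p6 at 43978858 to 43981828. The 250 bases before its start in the RefSeq promoter table are shown, because it is the only podocyte-enriched gene that passed the test, beside those of Rab3b, which also had a ratio over 100 and did not pass. The table's start of Fgfbp1 lies inside the span of the gene, so the last bases of its window overlap that span. Both run 5′ to 3′ on the gene's own strand, minus for Fgfbp1 and plus for Rab3b. Capitals mark E-boxes (CANNTG), the motif of basic helix-loop-helix factors such as Tcf21.
Fgfbp1, chr5:43981800-43982049: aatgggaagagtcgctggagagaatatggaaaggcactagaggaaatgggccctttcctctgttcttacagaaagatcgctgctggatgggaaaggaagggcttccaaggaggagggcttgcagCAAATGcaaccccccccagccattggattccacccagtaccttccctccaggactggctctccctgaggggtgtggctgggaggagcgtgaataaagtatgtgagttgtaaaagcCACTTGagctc
Rab3b, chr4:108878820-108879069: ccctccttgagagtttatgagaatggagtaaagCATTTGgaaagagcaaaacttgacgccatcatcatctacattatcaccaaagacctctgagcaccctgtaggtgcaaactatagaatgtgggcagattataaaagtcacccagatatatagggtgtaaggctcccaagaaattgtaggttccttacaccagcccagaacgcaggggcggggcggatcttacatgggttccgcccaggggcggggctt
The Fgfbp1 window held 2 E-boxes and the Rab3b window 1, and 66.2% of 32851 promoter windows of this length held at least 1 on either strand. Neither window held GCGTGGG, a core bound by EGR factors and WT1 (in 4.30% of windows). Of the 25 genes with the highest ratios, 17 had an entry in the table.

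Apoe encodes apolipoprotein E, a lipid carrier made in bulk by macrophages. In podocytes it measured 56.0 and 9.28 CPM in mice 1 and 2, from 13 and 1 UMIs, and 422, 1138 and 463 CPM in mice 3, 4 and 5. Every day 10 mouse was above both 48 h mice, and the log2 fold change was 4.02 (SE 0.55, 95% interval 2.84 to 5.20; adjusted p = 0.0130 by edgeR). One cell of mouse 4 held the larger part of its 193 Apoe UMIs, and without that cell mouse 4 had 511 CPM. Without mouse 5 the adjusted p was 0.0605, with a log2 fold change of 4.22. The log2 fold change was 6.06 without mouse 1, 3.51 without mouse 2 and 3.44 without mouse 4, and without the 10 cells holding another type's markers it was 4.74 (adjusted p = 5.94e-07 by edgeR). Apoe also rose in the other cells of the same mice, summed over their labels, where its mean was 9179 CPM (log2 fold change 4.55, adjusted p = 0.0205 by edgeR). The difference between podocytes and those cells was -0.58 and did not pass. That sum includes the immune cells, and the rise was not of this size in every label. In endothelial cells Apoe measured 1458 and 1345 CPM at 48 h and 1410, 1680 and 2160 CPM at day 10, so the groups overlapped.

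Macrophage genes moved with Apoe in podocytes. The 12 macrophage markers, Apoe among them, summed to 138 and 46.4 CPM in the podocytes of the 48 h mice and to 841, 2022 and 1435 CPM in those of the day 10 mice, with 0 of the 12 absent. Without the 10 cells that held another type's markers, the sums were 104, 46.4, 813, 1060 and 898 CPM. All 5 markers that could be tested were higher at day 10 with no overlap, and 1 of them, Apoe, passed the test. Among all genes tested, 24% had no overlap. In mice 1 and 2 the UMIs were 13 and 1 for Apoe and 5 and 0 for Lyz2. They were 4 and 0 for Cd74, 3 and 0 for C1qb, and 1 and 1 for Ctss. With so few at 48 h, the filter on low counts kept these genes through their day 10 levels, so their shared direction is no result. Cd74 measured 17.2 CPM in mouse 1 and 17.7 CPM in mouse 4, from 4 and 3 UMIs. In immune cells themselves Apoe measured 2518 and 1756 CPM at 48 h and 35874, 41828 and 35082 CPM at day 10. The podocyte level was 2.22%, 0.528%, 1.18%, 2.72% and 1.32% of the immune level in mice 1 to 5, and the lowest label of each mouse held between 3.86 and 4.55 CPM at 48 h and between 170 and 239 CPM at day 10. The part of RNA from other cells in the podocyte value was not tested.

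**Figure D3:**
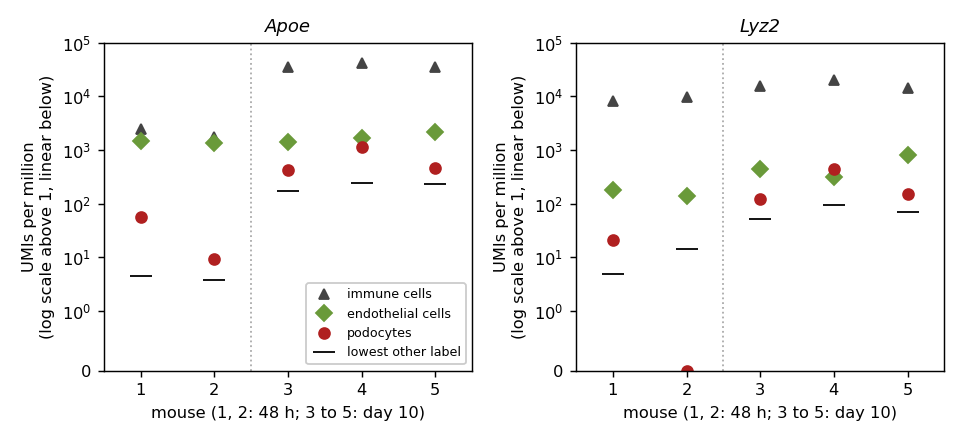
Apoe (left) and the macrophage lysozyme gene Lyz2 (right) in podocytes (red), immune cells (grey triangles), endothelial cells (green diamonds) and the label with the lowest level (bars), by mouse. The y axis gives CPM on a log scale above 1 and a linear scale below. Apoe in podocytes rose from 56.0 and 9.28 at 48 h to between 422 and 1138 at day 10, and the lowest label was higher at day 10 too, at most 4.55 before and at least 170 then.

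Apart from Fgfbp1, the genes that set podocytes apart did not pass the test between the times. Of the 55 genes more than 10 times higher than in any other label, 1 fell, 0 rose, and 20 did not overlap between the groups, beside 0.048% called and 24% without overlap among all genes tested. Their median log2 fold change was 0.02, and that of all genes tested was also 0.02. For Nphs1 the log2 fold change was 0.50 (95% interval 0.10 to 0.89, adjusted p = 0.727 by edgeR), and all day 10 mice lay above both 48 h mice. For Podxl it was -0.15 (-0.51 to 0.21), for Synpo -0.20 (-0.59 to 0.19), for Wt1 0.11 (-0.34 to 0.57) and for Vegfa -0.21 (-0.57 to 0.16), so changes of more than 2-fold lay outside each of these intervals. For Podxl all day 10 mice lay below both 48 h mice, while Synpo, Wt1 and Vegfa overlapped between the groups.

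Cdkn1c separated the times without passing the test. It measured 9554 and 9279 CPM at 48 h and 6125, 6419.7 and 4513 CPM at day 10. Both 48 h mice lay well above the day 10 mice, whose lowest was mouse 5. The log2 fold change was -0.73 (SE 0.19, unadjusted p = 0.00150, adjusted p = 0.644 by edgeR).

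After Apoe and Fgfbp1 the smallest p belonged to Lyz2, a macrophage lysozyme (log2 fold change 3.89, adjusted p = 0.207 by edgeR), and Mgp, a matrix protein of vessels and stroma (3.89, 0.230), from 5 and 0 UMIs of Lyz2 and 2 and 1 of Mgp at 48 h. In every mouse Lyz2 was lower in podocytes than in immune cells, and Mgp lower than in endothelial cells. The genes chosen by the naming rule, which asks for a level of at least 0.2 times that of the other cells, did not pass either. Lower at day 10 were Gsta4, a glutathione transferase (log2 fold change -1.14, adjusted p = 0.230 by edgeR), Aplp1, a relative of the amyloid precursor protein (-0.81, 0.531), and Tle5, a transcriptional corepressor (-0.85, 0.531). Aplp1 measured 517 and 538 CPM at 48 h and 325, 307 and 274 CPM at day 10. Higher at day 10 were Lama5, the laminin chain of the glomerular basement membrane (1.64, 0.531), Nupr1, a stress-induced nuclear protein (0.78, 0.644), Cirbp, a cold-inducible RNA-binding protein (2.08, 0.644), Ctsl, the lysosomal protease cathepsin L (0.59, 0.644), and Sars, a seryl-tRNA synthetase (1.29, 0.644). Lama5 measured 30.1 and 37.1 CPM at 48 h and at least 90.0 CPM in each day 10 mouse (mean 104, SD 11.9, n = 3). None of these groups overlapped, but the naming rule asks for genes without overlap, so this is no separate result. Among all genes tested, 24% had no overlap. In mice 1 and 2 there were few UMIs of Lama5 (7 and 4), Cirbp (9 and 1) and Sars (8 and 4). The filter on low counts kept these genes, like Lyz2 and Mgp, through their day 10 levels, so their direction is no result.

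By function, 0 of 12 tested slit diaphragm genes, 0 of 17 surface genes, 0 of 13 transcription factors, 0 of 20 cytoskeletal genes, 0 of 15 basement membrane genes and 0 of 13 secreted factors passed. With 0.048% of all genes called, counts of 0 in lists of this size say nothing about their members. The median log2 fold changes of these lists lay between -0.21 for secreted factors and 0.18 for transcription factors. Genes of endoplasmic reticulum folding and stress had a median of -0.46, with 13 of 15 lower at day 10, 5 of them at an unadjusted p under 0.05 and 0 past adjustment. Among all genes tested 2012 of 4167 were lower, 118 (2.83%) of them at an unadjusted p under 0.05. In the other cells of the same mice 15 of the 15 were lower, with a median of -0.50. Hspa5, the main chaperone of that compartment, measured 1662 and 1280.5 CPM at 48 h and 1295, 513 and 459 CPM at day 10, so mouse 3 overlapped the 48 h mice. Its log2 fold change was -0.97 in podocytes and -0.97 in the other cells, and neither passed (adjusted p = 0.697 and 0.280 by edgeR). Genes of tubular injury had a median of -0.49 with 11 of 12 lower and 0 past adjustment, and in the other cells 10 of the 12 were lower with a median of -0.51. Spp1 (osteopontin) measured 4069 and 891 CPM at 48 h and 1142, 448 and 1169 CPM at day 10, and 0 of the 16 other labels compared lay below podocytes in any mouse. Its log2 fold change was -1.45 in podocytes and -1.59 in the other cells (adjusted p = 0.644 and 0.105 by edgeR). Lyz2, Mgp, Hspa5 and Spp1 were chosen for naming after their values were seen. Apoe too was named outside the naming rule, since its podocyte level lay below 0.2 times that of the other cells.

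**Figure D4:**
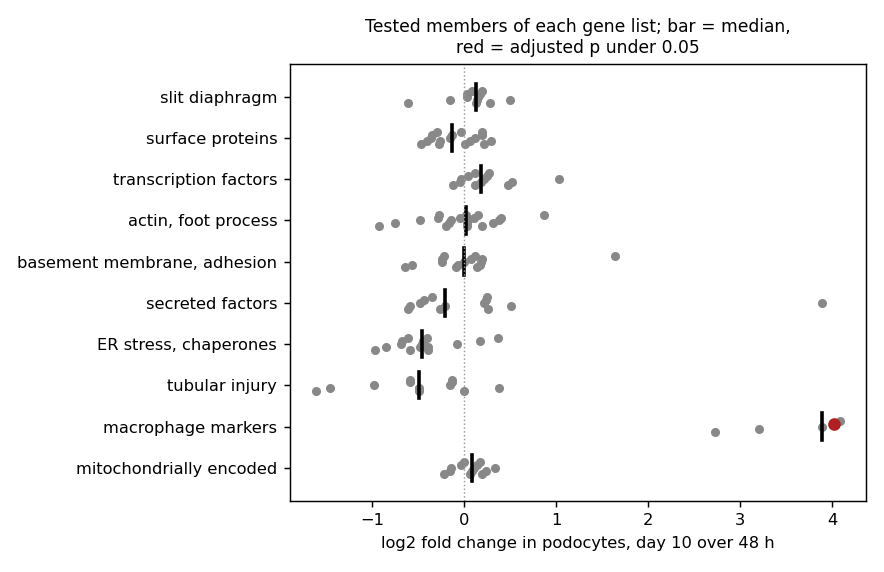
Log2 fold change in podocytes, day 10 over 48 h, of the tested members of 10 gene lists. Each dot is a gene, the bar is the list's median and red marks an adjusted p under 0.05. Podocyte lists centre near 0 (medians -0.21 to 0.18), the stress and tubular injury lists at -0.46 and -0.49, and the 5 macrophage markers at 3.89. The macrophage markers held few UMIs at 48 h, and the filter on low counts kept them through their day 10 levels.

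To ask whether podocytes changed with time by another amount than the other cells of the same kidneys, an interaction was fitted with the mouse as a block. Of 16010 genes, 76 (0.475%) passed, and 59 of these were among the 4167 genes of the podocyte test. This comparison moves with either side. It also moves with the make-up of the other cells, which were summed over their labels. Interstitial cells among them numbered 115 and 71 in mice 1 and 2 and 349, 286 and 184 in mice 3, 4 and 5. The part of such shifts in the differences was not tested. Timp2, a metalloproteinase inhibitor, had a log2 fold change of 0.00 in podocytes and 1.88 in the other cells. Only 8 of the 76 also passed against proximal tubule cells and against endothelial cells as the reference. Of these 8, 4 passed without the 10 cells holding other markers too, namely Igfbp7, Sparc, Timp2 and Slc5a3.

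For Igfbp7 and Sparc, both secreted matrix-associated proteins, the difference between podocytes and the other cells passed, while the change passed on neither side. Sparc measured 4267 and 3999 CPM in podocytes at 48 h and 2909.9, 2541 and 2672 CPM at day 10, with no overlap. Its log2 fold change was -0.61 in podocytes (adjusted p = 0.644 by edgeR, not passed) and 0.77 in the other cells (adjusted p = 0.189 by edgeR), a difference of -1.34 (adjusted p = 2.06e-06 by edgeR). Igfbp7 measured 12533 and 12257 CPM at 48 h and 8980.0, 7911 and 7902 CPM at day 10. Its log2 fold change was -0.59 in podocytes (adjusted p = 0.644 by edgeR) and 0.55 in the other cells (adjusted p = 0.250 by edgeR), and the difference was -1.14 (adjusted p = 9.28e-05 by edgeR). Slc5a3, the sodium and myo-inositol cotransporter, measured 129 and 92.8 CPM at 48 h and 223, 242 and 145 CPM at day 10, while it fell by 2.33 on the log2 scale in the other cells. Of the 76 genes, 9 were mitochondrial and 7 were thick limb or distal tubule markers. Without the 10 cells holding other markers, the 9 mitochondrial genes did not pass (adjusted p from 0.177 to 0.976 by edgeR). Aqp2, Fxyd4, Hsd11b2, Slc12a1 and Umod did not pass either, while Atp6v1g3 did (adjusted p = 0.00645 by edgeR). The cell of mouse 5 with 30057 UMIs held 63 UMIs of Aqp2, 62 of Fxyd4, 54 of Hsd11b2 and 66 of Slc12a1.

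Podocytes made up 0.695% of kept cells in mouse 1, 0.403% in mouse 2, 0.829% in mouse 3, 0.588% in mouse 4 and 0.821% in mouse 5. The groups overlapped, since mouse 4 lay below mouse 1. Group means were 0.549% (SD 0.206, n = 2) and 0.746% (SD 0.137, n = 3), and edgeR over the 18 labels put the change at 0.43 on the log2 scale (SE 0.51; adjusted p = 0.490). With immune and red blood cells left out of the total, the shares were 0.866% and 0.596% at 48 h and 1.33%, 1.05% and 1.34% at day 10, and the log2 fold change was 0.75 with an adjusted p of 0.0469 by edgeR. It passed without mouse 1 (1.06) and did not pass without any 1 of the other mice, with values from 0.53 to 0.85. The change over all kept cells was 0.11 without mouse 2 and 0.89 without mouse 1, and neither passed. A share of captured cells depends on how well each cell type survives dissociation, which was not measured.

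**Figure D5:**
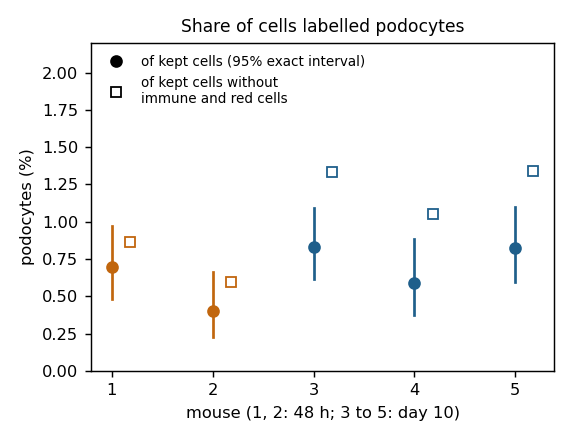
Share of cells labelled podocytes by mouse, in percent. Filled circles give the share of kept cells with its exact 95% binomial interval, open squares the share without immune and red blood cells. Circles of the times overlap (0.403 to 0.695% and 0.588 to 0.829%), and squares do not.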

How the data were processed

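Kidney cells of 5 injured mice were profiled with the 10x Genomics 3′ v3.1 kit, per the labels. The deposited matrices hold raw UMI counts per gene and barcode. Per the submitters' processing notes, Cell Ranger 6.0.2, Seurat 4.0.5 and mm10 were used, and the file headers name Cell Ranger 6.0.0. Cell names came from the deposited annotation, joined by barcode and sample. Its deposited percent of mitochondrial UMIs was used only to describe cells.

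Counts were summed over podocytes per mouse. Day 10 was tested against 48 h with edgeR 4.0.16 (R 4.3.3) after its default filter on low counts and TMM scaling. The same test served for the interaction and for cell numbers. DESeq2 1.42.0, other filters, scalings and cell sets, and leaving out each mouse were alternatives. In data simulated for the podocyte time test (3701 genes), genes were changed by 2 or 4 on the log2 scale. Of the changed genes that were tested, 75 of 81 (92.6%) and 83 of 83 (100%) were recovered, and 7 unchanged genes were called. Changed genes that were not tested are left out of these shares, and changes smaller than 2 are not covered. All genes were simulated with the same spread between mice, so the shares do not cover genes that vary more than that. Podocyte totals lay between 107774 and 255680 UMIs, so genes under about 100 CPM rest on few UMIs per mouse.

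Named identity genes were the 25 with the highest ratio to any other label within the stated limits. Named time genes were those passing with no overlap, an average log2 CPM of at least 5 and a level at least 0.2 times that of the other cells. Where fewer than 5 passed in a direction, they were the 5 of smallest p within the same limits. Nphs1, Podxl, Synpo, Wt1, Vegfa and Cdkn1c were always named, and list members were counted. Apoe passed the test but lay below the limit of 0.2 times the other cells, and was named outside these rules. Some genes that these rules name are not reported here. The members and lists were chosen with earlier results of these data known. Libraries are single mice, and p-values measure the spread between them.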

Additional observations from a re-analysis of the deposited data

Results flagged for a closer look

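For 12 named genes, the change with time in podocytes differed from that in the other cells of the same mice by the interaction test (edgeR, adjusted over 16010 genes). The other cells were summed over labels, and their make-up also differed between the times. The differences on the log2 scale, podocytes minus the other cells, were -2.35 for Fgfbp1, -1.57 for Cdkn1c, -1.49 for Aplp1, 0.90 for Nupr1, -1.14 for Igfbp7, -1.34 for Sparc, -1.85 for Timp2, 3.18 for Slc5a3, -2.36 for Tcf21, -1.37 for Ptpro, 0.89 for Enpep and 2.09 for Lyz2. Tcf21, Ptpro and Enpep had log2 fold changes of -0.03, -0.03 and 0.01 in podocytes and of 2.37, 1.28 and -0.79 in the other cells, none of which passed, and their differences did not pass against proximal tubule or endothelial cells. Lyz2 did not pass without the 10 podocytes holding another type's markers (1.40, adjusted p = 1.00 by edgeR), nor did Enpep (0.89, adjusted p = 0.0714). Fgfbp1 stood at a mean of 0.537 CPM in the other cells, and its difference did not pass against proximal tubule cells (adjusted p = 0.765 by edgeR) or endothelial cells (adjusted p = 1.00). Cdkn1c had a log2 fold change of 0.81 in the other cells (adjusted p = 0.104 by edgeR), where its mean was 11.4 CPM, and its difference held against endothelial cells (-1.27) but not against proximal tubule cells (-0.60). Nupr1 did not pass without the 10 podocytes holding another type's markers (adjusted p = 0.0518 by edgeR), where its difference was 0.93, and had a difference of -0.37 against proximal tubule cells.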

How the results depend on the processing

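The count of genes changed between the times was 2 and became 46 with no filter on low counts, 11 with at least 20 cells per mouse (the same fit as without mouse 2), 6 without cells of very high UMIs and, chosen after seeing the data, 7 without cells holding another type's markers. It lay between 0 and 11 when each mouse was left out, with 0 without mouse 5, 1 without mouse 4 and 11 without mouse 2. Without mouse 1 or mouse 2 a single 48 h mouse is left, assumed to vary like the day 10 mice. With no mouse 5, 189 genes had an unadjusted p under 0.05. DESeq2 called 2. Over 14 alternatives with distinct fits, Fgfbp1 kept its direction in 14 and passed in 12, and Apoe in 14 and 13. Genes whose change differed from that of the other cells numbered 76, 34 against endothelial cells, 48 without the cells holding other markers, and 42 to 75 with each mouse left out: 44 without mouse 1, 42 without mouse 2, 44 without mouse 3 and 49 without mouse 5. The podocyte share of cells passed among its alternatives only without immune and red blood cells (0.75), and then, in fits chosen after seeing the data, lay between 0.53 without mouse 2 and 1.06 without mouse 1, passing only without mouse 1. Thinning to 1000 UMIs gave 79.4% for Nphs1 and 49.1% for Synpo. Leaving out mice moved the share of cells with Synpo between 90.9% and 96.6%, the higher without mouse 3. The change of Wt1 ranged from -0.079 without mouse 4 to 0.25 without mouse 5. The causes were not tested, beyond the fewer genes or samples some alternatives hold. Depth limits the test to genes of moderate level. No paired analysis was possible because the groups share no mouse numbers.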
